A study of Mus musculus with 14 samples.

Results

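The macrophage and myeloid genes described here are 36 genes of monocytes, macrophages and related phagocytes, listed by name and found in the aortic valve count table through their Ensembl identifiers. All 36 were in the table of 56941 genes, and all 36 were among the 19145 genes with enough counts to be tested. The valves came from C57BL/6J wild-type male mice that entered the experiment at 8 weeks of age, and every group ate the Breslow Western Diet, so no group had a normal diet. The Control group held 4 mice with no drug. The LY group held 2 mice dosed with LY272015, which blocks the serotonin receptor HTR2B, at 3 mg/kg by intraperitoneal injection. The AngII group held 4 mice infused with angiotensin II at 1000 ng/kg/min from osmotic pumps for 28 days. The AngII+LY group held 4 mice that received the infusion and LY272015 together. The labels of some LY-treated mice carry other compound numbers, and those mice were placed by their titles. Injections are described as 2 per week in one place and every other day in another. The design description places all AngII and AngII+LY valves 48 hours after pump removal, while the study's methods apply this to a subset, and Control and LY mice carried no such interval. Hearts were perfused with PBS and RNA was taken in bulk from dissected leaflets, so fewer cells of a type and less RNA per cell cannot be told apart. The design description counts 4 mice in each group, which matches 1 mouse per library except in LY, where 2 libraries were analyzed here.

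Macrophages reside in the leaflets and the wall around them, and live under the control of CSF1, which signals through the receptor encoded by Csf1r. The transcription factor PU.1, the product of Spi1, switches on much of the myeloid program, including Csf1r and the Fc receptors that bind antibody-coated particles. Resident macrophages of the heart carry LYVE1, FOLR2, TIMD4 and CD163, monocytes recruited from blood carry CCR2, and lipid-loaded macrophages carry TREM2 and GPNMB. S100A8 and S100A9 form calprotectin, which neutrophils and monocytes carry.

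Per kilobase of exon, Lyz2, which encodes lysozyme, was the most abundant member in the Control valves, at 9074 ± 4711 normalized counts per kb (SD, n = 4). The signaling adaptors Tyrobp, at 5235 ± 2929, and Fcer1g, at 3755 ± 1985, followed on the same scale. The ranges over mice overlapped between Lyz2 and Tyrobp and between Tyrobp and Fcer1g, while this order held within each Control mouse. Cd68 came after them, at 1208 ± 763 per kb. The scavenger receptor Marco was the lowest, at 6.65 ± 8.00 per kb. Together the 36 members took 0.268, 0.168, 0.1046 and 0.07715% of the counts in Control mice 1 to 4. The member level therefore differed within the Control group itself, with Control 1 highest of its group in 28 of the 36 members and Control 4 lowest in 22. Over all 14 mice, Control 1 was the highest in 20 members. The 2 LY mice stood at 0.170 and 0.1209%, inside the Control range. AngII mice held 0.06504, 0.09517, 0.08082 and 0.1182% of their counts in these genes. AngII+LY mice held 0.07025, 0.09638, 0.08948 and 0.1653%, and the last value was carried by Lyz2, since without Lyz2 the same mouse had 0.05097%.

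**Figure D1:**
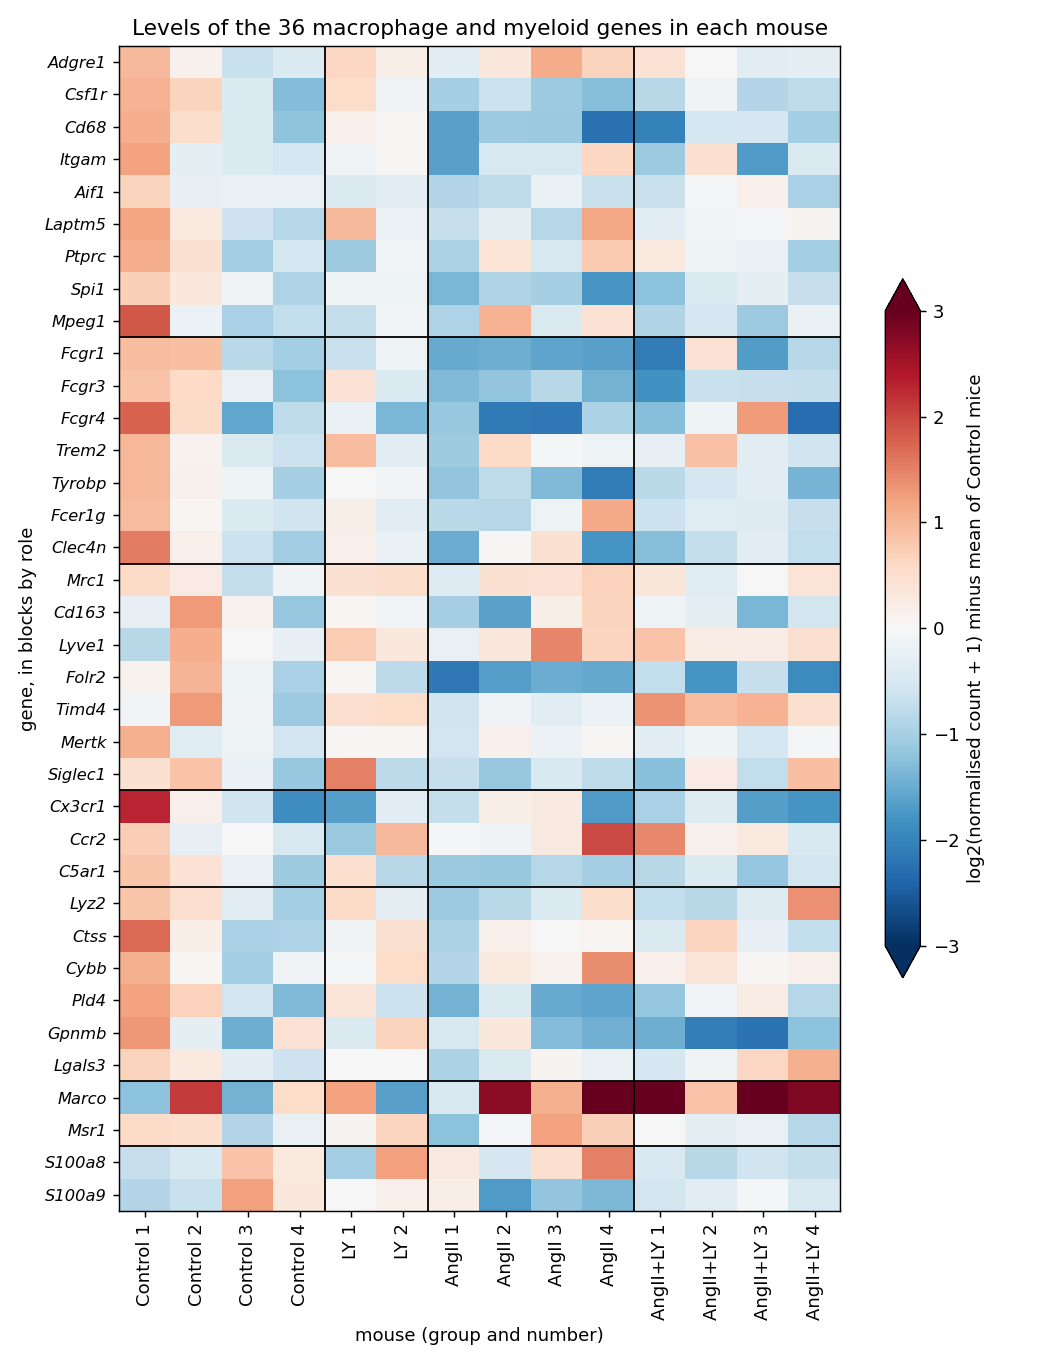
Level of each of the 36 members (rows, in blocks by role) in each of the 14 mice (columns), as log2(normalized count + 1) minus the mean of the 4 Control mice, with red above and blue below that mean. Control 1 is the highest of its group in 28 members and Control 4 the lowest in 22, and Csf1r, Cd68, Spi1, Tyrobp, Fcgr1 and Folr2 are blue in all 4 AngII mice.

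Library totals ranged from 20990655 counts in AngII 4 to 73128220. The share of counts from the mitochondrial genome ran from 4.00 to 7.52% in Control, from 8.62 to 9.76% in LY, from 9.83 to 25.5% in AngII and from 10.1 to 20.2% in AngII+LY mice. The 5 smooth muscle genes took 0.8511% of the counts in Control 1 and 0.1095% in Control 2, the Control mice with the highest member shares, against 0.01423 and 0.01694% in Control 3 and 4. AngII 4, the smallest library, held 0.3386% of its counts in 9 platelet genes, against 0.03637 to 0.05208% in the other AngII mice. That platelet list was chosen after the values were seen, and the part of these differences in the member levels was not tested.

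The first comparison asks how angiotensin II infusion on the Western diet bore on the myeloid genes of the valve. Among the 11 members lower at an unadjusted edgeR p under 0.05 were Csf1r, Cd68, Spi1, Tyrobp, Fcgr1, Fcgr3 and Folr2. The mean levels of these named genes in AngII valves lay between 0.27 and 0.42 times those of Control valves. The identity genes Ptprc, Itgam, Mpeg1 and Laptm5 and the adaptor Fcer1g did not pass that threshold. The macrophage marker Adgre1 and the resident receptors Mrc1 and Lyve1 had mean levels above those of Control that did not pass either. The 9 leukocyte and macrophage identity genes had a median log2 fold change of -0.49, and of 0.12 without Control 1. No member passed the edgeR quasi-likelihood test: 0 of 36 were called at an adjusted p under 0.05 with an absolute log2 fold change above 0.5, as for 0.0% of all genes tested, and the smallest adjusted p of a member was 0.0584. At an unadjusted p under 0.05, 11 members were lower and 0 were higher, where 11.7% of all genes tested were lower and 13.4% higher. DESeq2 called 9 members, all lower, against 4.75% of all genes tested called lower and 9.16% higher. Limma voom called 0 members, and the bias-corrected version of the edgeR test called Spi1 alone, where 2.9% of all genes were called. Between the groups, 2 members had no overlap, Fcgr1 and Folr2, both lower in AngII, where 7.56% of all genes tested lay lower and 7.46% higher without overlap. The median log2 fold change of the members was -0.52, beside -0.06 for all genes tested, with 28 members below 0 and 8 above. Without Control 1 this median was -0.06, and 9 members were lower and 1, Adgre1, was higher at an unadjusted p under 0.05. In that fit 9.0% of all genes were lower, and 2203 of the 19145 were higher. Without Control 4, edgeR called 7 members, all lower (C5ar1, Cd68, Csf1r, Fcgr3, Folr2, Spi1 and Tyrobp), where 4.17% of all genes were called, and without AngII 1 it called Spi1 alone, where 9.02% of all genes were.

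Among the 9 genes of leukocyte and macrophage identity, 4 were lower at an unadjusted p under 0.05. Csf1r (chr18:61229714-61266535 of GRCm39), the receptor for CSF1, stood at 6303, 4907, 2323 and 1251 normalized counts in Control mice, and at 1544, 1955, 1437 and 1264 in AngII mice. Control 4 lay below all 4 AngII mice, while Control 1 to 3 lay above all of them. The log2 fold change was -1.25 ± 0.40 (SE), with an adjusted p of 0.0874 by edgeR and 0.0187 by DESeq2. Cd68 (chr11:69555037-69557067), a lysosomal membrane protein of macrophages, measured 2952, 2007, 1051 and 605 in Control and 447, 658, 645 and 294 in AngII mice. Only Control 4 fell inside the AngII range, and the log2 fold change was -1.69 ± 0.46, with an adjusted p of 0.0632 by edgeR and 0.00482 by DESeq2. Aif1, the calcium-binding protein IBA1, was at 3878, 2029, 2121 and 2063 in Control and at 1325, 1422, 2115 and 1535 in AngII mice, with a log2 fold change of -0.66 ± 0.28 and an adjusted p of 0.162 by edgeR. AngII 3 alone reached the Control range of Aif1, and Control 1 stood far above it.

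Spi1 (chr2:90912562-90946101), which encodes PU.1, had the smallest p of all members. Its normalized counts were 2126, 1605, 1189.6 and 679.6 in Control mice and 495, 687, 640.5 and 384 in AngII mice. The groups touched only where AngII 2 lay just above Control 4. The log2 fold change was -1.34 ± 0.33, a level of 0.40 times that of Control, with an adjusted p of 0.0584 by edgeR and 0.00317 by DESeq2. Leaving out any mouse kept the log2 fold change of Spi1 between -1.57 and -1.07.

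The other 5 identity genes did not pass the unadjusted threshold. Adgre1, the adhesion receptor that marks mouse macrophages, had 1878, 1048, 604 and 718 in Control and 757, 1195, 2067 and 1529 in AngII mice, with a log2 fold change of 0.38 ± 0.37 and an adjusted p of 0.542. Its values crossed between the groups, with AngII 3 above every Control mouse, and so a widely used macrophage marker did not move with Csf1r and Cd68. Without Control 1, the log2 fold change of Adgre1 was 0.81 ± 0.34, with an unadjusted p of 0.0318 and an adjusted p of 0.205 by edgeR. Ptprc, the pan-leukocyte antigen CD45, Itgam, the integrin chain CD11b, the pore-forming Mpeg1 and the lysosomal Laptm5 had log2 fold changes from -0.49 to -0.14, with adjusted p-values from 0.655 to 0.894. Laptm5 reached 8646 in AngII 4, the mouse with high platelet genes, against 2133 to 3194 in the other AngII mice, and its log2 fold change without AngII 4 was -0.82 ± 0.43.

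The hexamer GAGGAA, a core of the sequence that PU.1 binds, was searched on both strands (TTCCTC on the other) in the 250 bases before the start of each gene's Ensembl canonical transcript, from the GRCm39 genome and GENCODE vM39. For Spi1 and some other members that start lies inside the full span of the gene, which also covers transcripts that begin further upstream. It occurred in 15 of 36 member promoters, 41.7%, and in 23.2% of the promoters of 19042 tested genes. Among the 11 members lower in AngII at an unadjusted p under 0.05, 4 held it, 36.4%, and among the other 25 members 11 did, 44.0%, so the letters did not separate the members that were lower from those that were not. The 150 bases before the canonical start of Spi1, which had the smallest p of the members, and of Fcer1g, whose log2 fold change was -0.05 with AngII 4 and -0.71 without it, are given for comparison. They are written 5′ to 3′ on the strand of the gene, with the hexamer on either strand in capitals.
Spi1, chr2:90926291-90926440, plus strand: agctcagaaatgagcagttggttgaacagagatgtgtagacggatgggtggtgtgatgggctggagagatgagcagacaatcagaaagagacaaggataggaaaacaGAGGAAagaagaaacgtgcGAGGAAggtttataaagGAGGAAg
Fcer1g, chr1:171062220-171062369, minus strand: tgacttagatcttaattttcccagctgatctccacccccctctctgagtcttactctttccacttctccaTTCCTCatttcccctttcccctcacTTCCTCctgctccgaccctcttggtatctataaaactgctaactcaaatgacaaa
The Spi1 promoter held 3 copies, whose first bases lie at -43, -24 and -7 from the start. Fcer1g held 2, at -80 and -55. A match of 6 letters is a description of the sequence and no evidence that the factor binds there.

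The group of Fc receptors, adaptors and C-type lectin-like receptors held 7 members, all with log2 fold changes below 0, of which 4 were lower at an unadjusted p under 0.05. Fcgr1 (chr3:96190225-96201338), the high-affinity receptor for immunoglobulin G, measured 543, 542, 164 and 139.9 in Control and 100.3, 103, 94.9 and 92.6 in AngII mice. All AngII mice lay below all Control mice in Fcgr1 and close to each other, and the log2 fold change was -1.83 ± 0.59, with an adjusted p of 0.0908 by edgeR and 0.0197 by DESeq2. Fcgr3 had 3904, 3242, 1856 and 909 in Control and 862, 949, 1204 and 804 in AngII mice, with a log2 fold change of -1.37 ± 0.39 and an adjusted p of 0.0722 by edgeR and 0.0108 by DESeq2. Control 4 was again the Control mouse inside the AngII range. Fcgr4 was a low-count gene, at 266, 116, 25.9 and 45.2 in Control and 35.2, 17.03, 16.8 and 39.7 in AngII mice, with a log2 fold change of -2.07 ± 0.88 and an adjusted p of 0.161 by edgeR. Without Control 1, the log2 fold change of Fcgr4 was -1.21, with an unadjusted p of 0.191 in the edgeR fit. Fcgr3 and Fcgr4 lie on chromosome 1 and have related sequences, so reads that fit several Fc receptor genes make their split uncertain.

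Of the adaptors that pair with these receptors, Tyrobp was lower at the unadjusted threshold and Fcer1g was not. Tyrobp (chr7:30113170-30117010), the adaptor DAP12 of TREM2 and other receptors, was at 6322, 3474, 2899 and 1585 in Control and at 1387, 1867, 1267 and 735 in AngII mice. AngII 2 alone exceeded Control 4, and the log2 fold change was -1.44 ± 0.38, with an adjusted p of 0.0611 by edgeR and 0.00412 by DESeq2. Fcer1g, the common gamma chain of the activating Fc receptors, was at 7660.2, 4146, 2997 and 2603 in Control and at 2253, 2210.2, 3545 and 8792 in AngII mice. The highest of all 14 mice in Fcer1g was AngII 4, and the log2 fold change was -0.05 ± 0.42, with an adjusted p of 0.954 by edgeR. Without AngII 4, the log2 fold change of Fcer1g was -0.71 ± 0.33, in the direction of Tyrobp, with an adjusted p of 0.312 by edgeR. Trem2, the lipid-sensing receptor that signals through Tyrobp, had 1581, 862, 587 and 508 in Control and 380.4, 1193, 775 and 718 in AngII mice. These groups overlapped throughout, with a log2 fold change of -0.20 ± 0.46 and an adjusted p of 0.818. Clec4n, the fungal-pattern receptor dectin-2, ranged from 177 to 1064 in Control and from 106 to 504 in AngII mice, with an adjusted p of 0.451.

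Of the 7 receptors of tissue-resident macrophages, Folr2 alone was lower at an unadjusted p under 0.05. Folr2 (chr7:101489195-101506401), a folate receptor of resident macrophages, measured 198, 372, 164 and 92.6 in Control and 40.3, 57.2, 64.9 and 62.9 in AngII mice. The groups did not overlap, and the level in AngII was 0.27 times that in Control, a log2 fold change of -1.88 ± 0.51 with an adjusted p of 0.0635 by edgeR and 0.00624 by DESeq2. Lyve1, the hyaluronan receptor that marks another feature of the same cells and also lymphatic vessels, went from 786, 2962, 1379 and 1171 in Control to 1202, 1774, 3819 and 2177 in AngII mice. Lyve1 was lowest of all mice in Control 1, which was the highest mouse in most other members, and its log2 fold change was 0.51 ± 0.39, with an adjusted p of 0.441. Timd4, the phosphatidylserine receptor of long-lived resident macrophages, was at 114, 289.9, 111 and 55.3 in Control and at 78.6, 112, 93.7 and 106 in AngII mice, with a log2 fold change of -0.55 ± 0.46. Mrc1, Mertk, Cd163 and Siglec1, receptors for mannose sugars, for dying cells, for hemoglobin and for sialic acid, had log2 fold changes of 0.28, -0.27, -0.44 and -0.94, with adjusted p-values from 0.387 to 0.641.

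The 3 chemoattractant receptors differed from each other. C5ar1, the receptor for complement C5a, was at 1745, 1328, 852 and 471 in Control and at 457, 444, 539.5 and 493 in AngII mice. The AngII mice were tightly grouped near Control 4, and the log2 fold change was -1.19 ± 0.37, with an adjusted p of 0.0867 by edgeR and 0.0249 by DESeq2. Ccr2, which draws monocytes toward CCL2, had 471, 239, 281 and 205 in Control and 272, 264, 345 and 1118 in AngII mice. AngII 4 stood apart from the other AngII mice, which lay inside the Control range, and the log2 fold change of 0.73 ± 0.58 (adjusted p = 0.457 by edgeR) was -0.03 without AngII 4. Cx3cr1, the fractalkine receptor, ran from 62.4 to 1118 in Control, where Control 1 was far above the rest, and from 69.5 to 275 in AngII mice.

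Among the lysosomal and effector proteins, Pld4, an endolysosomal nuclease, was the 1 of 6 members lower at an unadjusted p under 0.05. Its levels were 2019, 1415, 596 and 352 in Control and 329, 649, 310.0 and 291 in AngII mice, with a log2 fold change of -1.47 ± 0.51 and an adjusted p of 0.107 by edgeR and 0.0279 by DESeq2. AngII 2 was the AngII mouse above Control 3 and 4. Lyz2 had 47994, 37868, 21507 and 13311 in Control and 12639, 15316, 20211 and 38502 in AngII mice, with a log2 fold change of -0.48 ± 0.54 and overlap throughout. Lyz2 has a closely related neighbor, Lyz1, with which reads may be split. Gpnmb, a membrane glycoprotein of lipid-laden macrophages, measured 3977, 1318, 582 and 2181 in Control and 1149.6, 2005, 648 and 596 in AngII mice, giving a log2 fold change of -0.87 ± 0.52 with an adjusted p of 0.317. Cathepsin S (Ctss), the oxidase subunit Cybb and galectin-3 (Lgals3) had log2 fold changes of -0.56, 0.25 and -0.42, with adjusted p-values from 0.482 to 0.775. Neither scavenger receptor passed, with Msr1 at 462, 444, 169 and 265 in Control and 130.3, 302, 719 and 509.6 in AngII mice and Marco at 2.16 to 34.99 in Control and 5.17 to 76.1 in AngII mice.

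The calprotectin subunits did not move together. S100a8 was at 109, 129, 319 and 215 in Control and at 213, 124, 248 and 503 in AngII mice, with a log2 fold change of 0.49 ± 0.53. S100a9, its partner, was at 106, 124, 465 and 243 in Control and at 225, 59.9, 85.3 and 76.1 in AngII mice, with a log2 fold change of -1.06 ± 0.53 and an adjusted p of 0.223. AngII 4 was the highest AngII mouse in S100a8 and not in S100a9. Neutrophil granule genes were near absence in all groups, with Mpo and Elane each at 0 in 13 of 14 mice and Ly6g at 0 in 10, and the 10 neutrophil genes took at most 0.000542% of the counts of any Control mouse and 0.00219% in AngII 3.

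**Figure D2:**
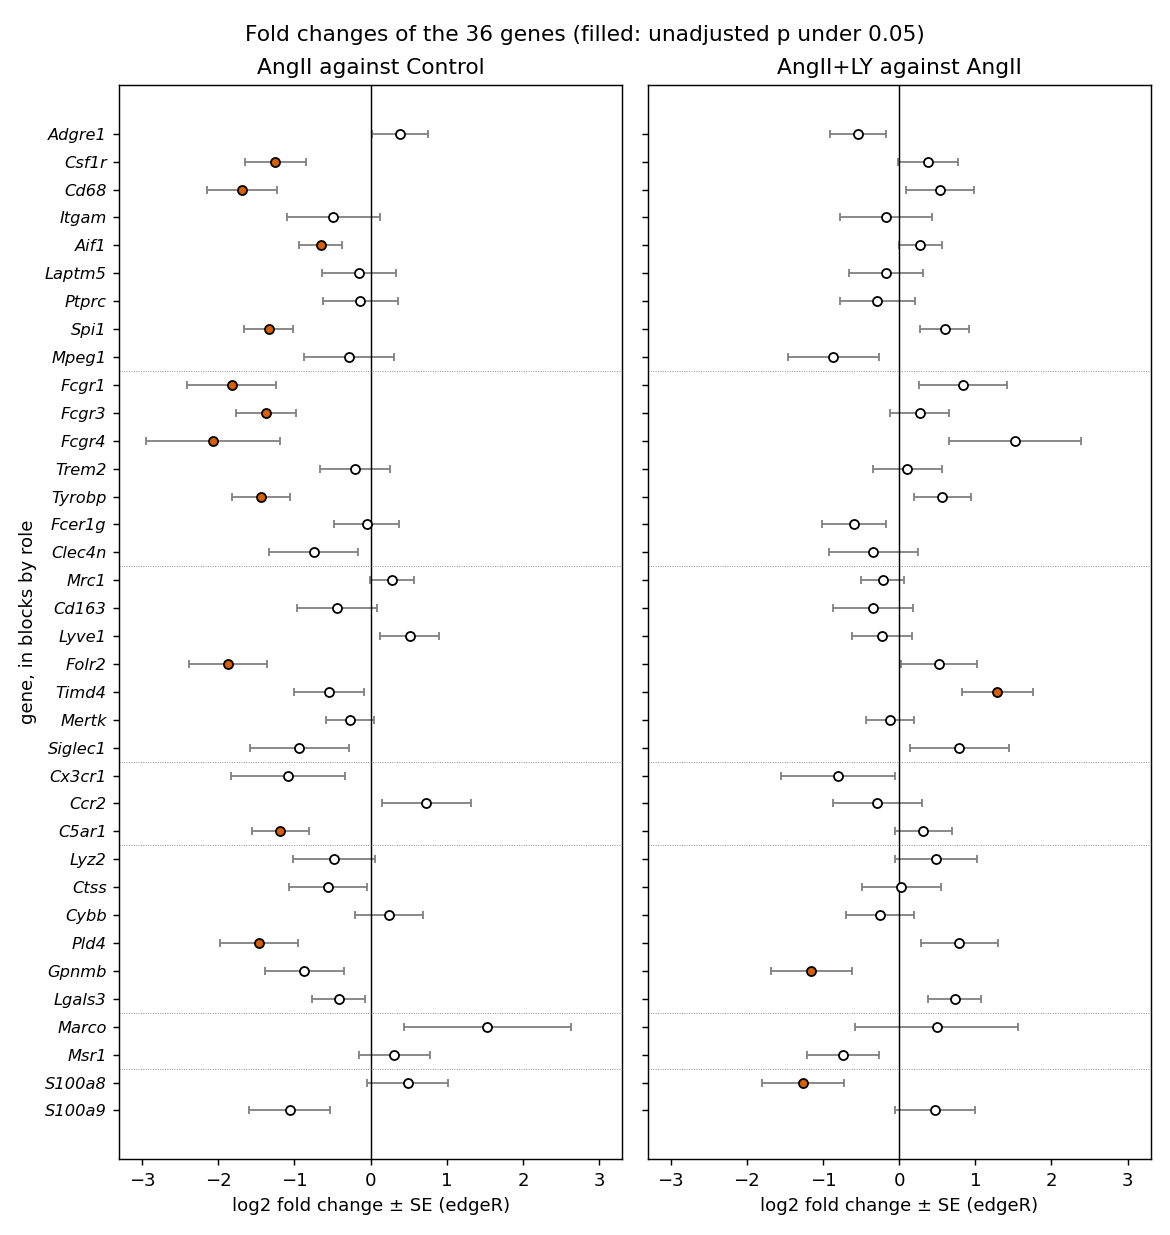
Log2 fold change of each of the 36 members with its standard error from the edgeR fit of all 14 mice, for AngII against Control (left) and AngII+LY against AngII (right), in blocks by role, with filled points at an unadjusted p under 0.05. On the left, 11 members are filled and all are below 0. On the right, Timd4 is above 0 and Gpnmb and S100a8 are below. The 2 panels share the AngII mice.

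**Figure D3:**
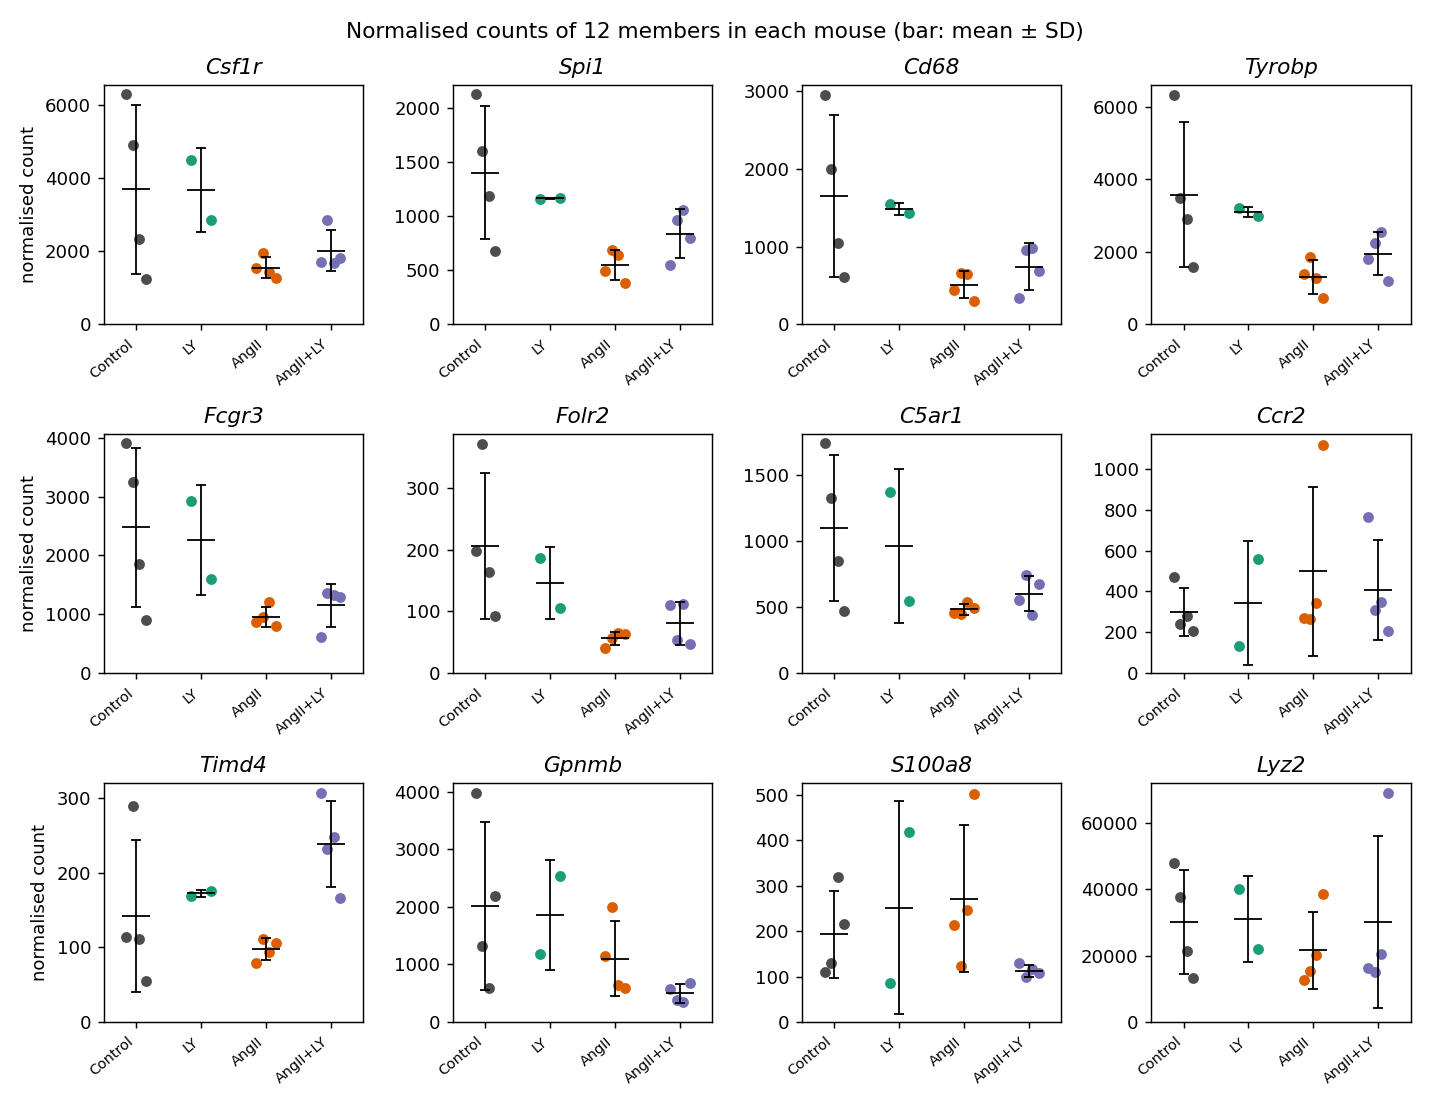
Normalized counts of 12 members in each mouse (points, left to right in the order of their numbers, 4 Control, 2 LY, 4 AngII and 4 AngII+LY mice), with the mean and SD of each group as a bar, on linear axes from 0. Folr2 in AngII lies between 40.3 and 64.9, below all Control mice, and Timd4 in AngII+LY lies between 167 and 308, above all AngII mice.

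Base composition ran alongside the difference between AngII and Control. Across all genes with a value, the log2 fold change and the GC content of the gene had a Spearman rho of -0.545 over 19041 genes, and over the 36 members rho was -0.472, a description across genes that share the same libraries. The GC contents of Spi1, Fcgr3, Tyrobp and Csf1r were 56.0, 55.5, 54.7 and 53.0%, while those of Msr1, Ccr2, Mrc1 and Cybb, which had log2 fold changes above 0, were 38.8, 39.2, 41.1 and 41.2%. Other members departed from this order. Marco, at 54.5%, had a log2 fold change of 1.53, while S100a9, at 43.9%, had -1.06 and Ptprc, at 38.2%, lay below 0. With the counts corrected for GC content in each library, the log2 fold changes of Spi1, Tyrobp and Csf1r were -0.85, -1.03 and -0.88 in place of -1.34, -1.44 and -1.25. The median log2 fold change of the 36 members was -0.70 with the correction and -0.52 without it. For all genes tested these medians were -0.02 and -0.06. After the GC correction 11 members were lower at an unadjusted p under 0.05, among them 10 of the 11 lower members without it, with S100a9 in place of Aif1, and edgeR called 0. No member was higher at this threshold. Of the 19145 genes tested, 1105 were lower and 1459 higher in the corrected fit.

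The next comparison asks whether HTR2B antagonism during the infusion altered these genes. In AngII+LY valves Timd4 was higher than in AngII valves in every mouse, Gpnmb and S100a8 were mostly lower, and no macrophage identity gene or Fc receptor passed the unadjusted threshold. The log2 fold changes of Fcgr1, Fcgr3 and Fcgr4 were 0.84, 0.27 and 1.52, the last the largest of any member, with an SE of 0.87. EdgeR called 0 of 36 members, as for 0.0% of all genes tested, with a smallest adjusted p of 0.127, and limma voom also called 0. At an unadjusted p under 0.05, 1 member was higher and 2 were lower, where 10.1% of all genes tested were higher and 12.4% lower. DESeq2 called Timd4 alone, where 5.34% of all genes were called higher and 5.54% lower. Timd4 was also the only member without overlap, where 5.45% of all genes lay higher and 5.66% lower without overlap. By the unadjusted threshold, by DESeq2 and by overlap alike, the members differed less often than all genes tested. The median log2 fold change of the members was 0.07, with 19 above 0 and 17 below, beside -0.02 for all genes tested. Leaving out a mouse moved this median between -0.14 (without AngII 1) and 0.28 (without AngII 4), so its sign was not stable. Marker shares of other cells differed in the same comparison. Valve interstitial and fibroblast genes held 0.373 to 0.597% of counts in AngII+LY against 0.907 to 1.37% in AngII mice. Cardiomyocyte genes held 1.59 to 3.87% against 0.678 to 1.30%, and neither pair of shares overlapped. In summed normalized counts the fibroblast genes stayed apart. The cardiomyocyte genes overlapped there, with 842091 in AngII+LY 2 and 866217 in AngII 3. The 5 smooth muscle genes all had log2 fold changes above 0, with a median of 2.14, and 1 of them was higher at an unadjusted p under 0.05. The part of these shares in the member levels was not tested.

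Timd4 (chr11:46701620-46735177) stood at 308, 232, 248 and 167 normalized counts in AngII+LY mice, against 78.6, 112, 93.7 and 106 in AngII mice. The lowest AngII+LY mouse lay above the highest AngII mouse, and the level was 2.45 times that of AngII, a log2 fold change of 1.29 ± 0.46 with an adjusted p of 0.127 by edgeR and 0.0412 by DESeq2. The LY mice had 169 and 176, inside the Control range of 55.3 to 289.9, and AngII+LY against Control gave a log2 fold change of 0.74 ± 0.45 with an adjusted p of 0.598 by edgeR. No other resident receptor shared the difference, with Lyve1 at 2504, 1612, 1617 and 1937 and Folr2 at 109.8, 53.3, 112 and 47.9 in AngII+LY mice and edgeR adjusted p-values of 0.783 and 0.577 against AngII. Folr2 in 2 of the 4 AngII+LY mice lay above all AngII mice, and in the other 2 it was inside their range.

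Gpnmb (chr6:49013426-49047863) measured 577, 381, 343 and 681 in AngII+LY mice, and 1149.6, 2005, 648 and 596 in AngII mice. AngII+LY 4 reached into the AngII range, and the log2 fold change was -1.15 ± 0.53, with an adjusted p of 0.213 by edgeR and 0.107 by DESeq2. Without AngII 2, the log2 fold change of Gpnmb was -0.69, and it missed the unadjusted threshold in 8 of 23 alternatives. Against Control, AngII+LY Gpnmb was lower still, with a log2 fold change of -2.02 ± 0.54, a level of 0.25 times that of Control, and an adjusted p of 0.242 by edgeR and 0.0112 by DESeq2. Control 3, at 582, was the Control mouse inside the AngII+LY range. S100a8 was at 129, 98.3, 117 and 107 in AngII+LY mice, a narrow range below 3 of the 4 AngII mice, with a log2 fold change of -1.26 ± 0.54 and an adjusted p of 0.189 by edgeR. Without AngII 4, the log2 fold change of S100a8 was -0.79, and it missed the unadjusted threshold in 9 of 23 alternatives. S100a9 at 133, 154, 193 and 141 did not share it, with a log2 fold change of 0.47 ± 0.52.

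The members that were lower in AngII than in Control overlapped both the AngII and the Control mice in AngII+LY valves. Csf1r had 1716, 2863, 1679 and 1809 in AngII+LY mice, of which AngII+LY 2 alone lay above all AngII mice, with a log2 fold change against AngII of 0.38 ± 0.39 and an adjusted p of 0.610 by edgeR. Spi1 had 546, 960.0, 1054 and 795, with 3 of the 4 mice above all AngII mice, a log2 fold change of 0.60 ± 0.32 and an adjusted p of 0.286. Cd68 had 341, 962, 989 and 686, and Tyrobp had 1812, 2241, 2553 and 1200.1, with adjusted p-values of 0.516 and 0.395 by edgeR. These values are not independent of the first comparison, since both use the same AngII mice. Fcgr1 at 65.9, 387, 89.3 and 158 and Fcgr4 at 31.6, 71.0, 191 and 15.3 were scattered across the AngII+LY mice. Fcgr3 had 614, 1355, 1332 and 1302, Pld4 393, 829, 1029 and 489, and C5ar1 553, 741, 442 and 674 in these mice, each overlapping the AngII group, with edgeR adjusted p-values of 0.733, 0.380 and 0.656. Aif1 had 1523, 2318, 2685 and 1236, Trem2 673, 1477, 629 and 528, and Ccr2 766, 309, 349.9 and 205. Lyz2 stood at 16207, 15004, 20660.0 and 69011, where AngII+LY 4 was the highest of all 14 mice, and Msr1 at 306, 257, 263 and 169.5.

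Against Control, the AngII+LY valves gave edgeR 0 called members, as for 0.0% of all genes tested, and 9 members lower and 0 higher at an unadjusted p under 0.05, where 6.14% of all genes tested were lower and 4.89% higher. These 9 were Csf1r, Cd68, Spi1, Fcgr3, Tyrobp, Folr2, Cx3cr1, C5ar1 and Gpnmb, with log2 fold changes from -2.02 to -0.74 and adjusted p-values from 0.242 to 0.434. No member was free of overlap, where 4.89% of all genes lay lower and 3.27% higher without it. DESeq2 called Gpnmb alone, where 0.951% of all genes were called lower and 0.841% higher. The median log2 fold change of the members was -0.57, and -0.08 without Control 1, where only 2 members were lower at an unadjusted p under 0.05 and 4.36% of all genes were.

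In LY against Control, which asks what the antagonist did without the infusion, edgeR called 0 members, 0 passed an unadjusted p of 0.05 and DESeq2 called 0, where 0.627% of all genes tested were higher and 0.763% lower at the unadjusted threshold and 0.11% were called lower by DESeq2. Aif1, at 1798 and 1949, lay below all Control mice, and it was the only member without overlap, where 6.41% of all genes lay lower and 5.64% higher without it. Csf1r at 4493 and 2861, Spi1 at 1162 and 1168, Cd68 at 1546 and 1432, Tyrobp at 3199 and 2994 and Folr2 at 187 and 105 were all within the Control range in the LY mice. With 2 LY mice, only large differences could pass. The difference between the effect of LY with the infusion and without it was tested as an interaction, and 0 members were called and 0 passed an unadjusted p of 0.05 in edgeR, where 5.66% of all genes were higher and 7.64% lower. DESeq2 also called 0 members, with 0.423% of all genes higher and 0.637% lower. The smallest unadjusted p of a member in that edgeR fit was 0.0669 for S100a8, and the log2 difference of the effects on Timd4 was 1.02 ± 0.73 with an adjusted p of 0.555.

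Ratios of members inside a mouse do not depend on how libraries are scaled. They were not corrected for GC content, which was 39.2% for Ccr2, 44.9% for Lyve1 and 51.1% for Trem2, against 53.0% for Csf1r. A dependence on GC content that differs between mice does not cancel in such a ratio, and its part was not tested. Relative to Csf1r, the monocyte receptor Ccr2 had log2 ratios of -3.74, -4.35, -3.04 and -2.61 in Control mice and -2.50, -2.88, -2.06 and -0.18 in AngII mice. Only AngII 2 fell inside the Control range, and the difference was 1.53, with p = 0.0571 in an exact two-sided permutation test and 0.257 after adjustment over 9 such tests. For Lyve1 relative to Csf1r the log2 ratios were -3.0, -0.73, -0.75 and -0.09 in Control and -0.36, -0.14, 1.41 and 0.78 in AngII mice, a difference of 1.57 with an exact permutation p of 0.0857. Trem2 relative to Csf1r had log2 ratios of -1.99, -2.51, -1.98 and -1.30 in Control and -2.02, -0.71, -0.89 and -0.82 in AngII mice, a difference of 0.84 with an exact permutation p of 0.114. The AngII+LY mice had mean log2 ratios of -2.44 ± 0.955, -0.06 ± 0.57 and -1.37 ± 0.34 (SD, n = 4) for these 3 receptors, and they overlapped both other groups. The smallest p that 4 mice against 4 allow is 0.029, and no adjusted p was under 0.257.

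**Figure D4:**
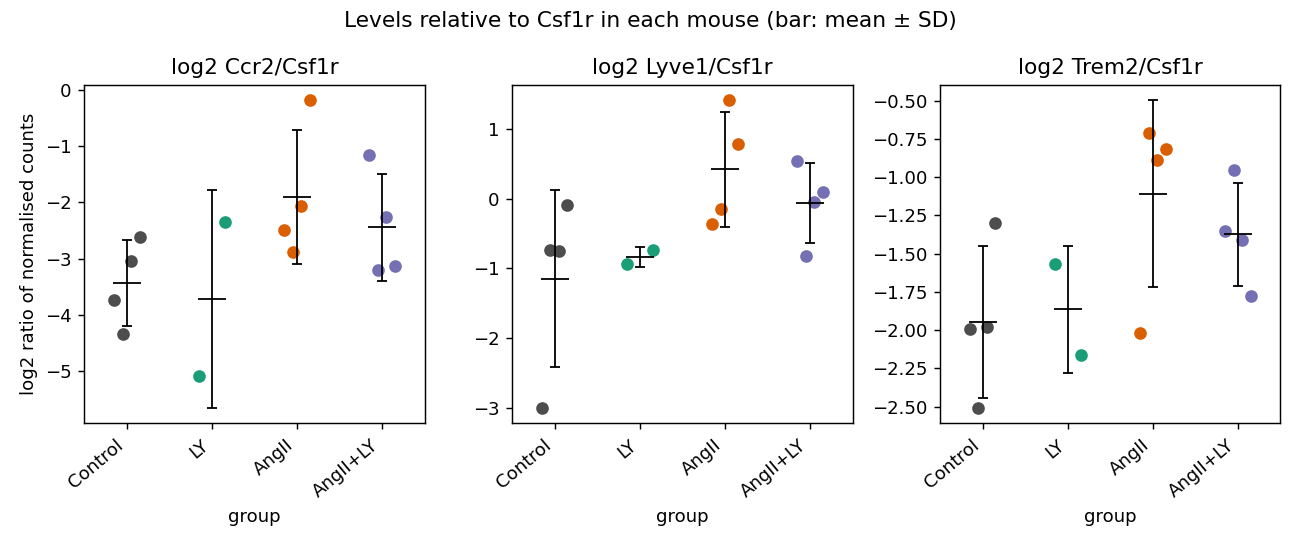
Log2 ratio of the normalized counts of Ccr2, Lyve1 and Trem2 to those of Csf1r in each mouse (points), with the mean and SD of each group as a bar. For Ccr2, 3 of the 4 AngII mice lie above all Control mice, and AngII 4 is the highest at -0.18.

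Genes that work with the members were read from 9 lists, and edgeR called none of them in any list in either main comparison, with 0.0% of all genes tested called. Of the 85 genes tested in the 9 lists, 33 were lower and 10 higher in AngII than in Control at an unadjusted p under 0.05, where 11.7% of all genes tested were lower and 13.4% higher, and the counts of each list below are read against these shares. In the list of complement C1q, whose subunits are made by macrophages, and the C3a receptor, 3 of 4 genes were lower in AngII and 0 higher. C1qa measured 12973, 8629.8, 4719 and 2912 in Control, 2261, 2625, 2042 and 1115 in AngII and 2606, 4422, 4382 and 3324 in AngII+LY mice. All AngII mice lay below all Control mice, with a log2 fold change of -1.86 ± 0.40 and an adjusted p of 0.0573 by edgeR and 0.000358 by DESeq2, and AngII+LY against AngII gave 0.87 ± 0.39 with an adjusted p of 0.204 by edgeR. C1qb and C1qc, named after their values were seen, also lay wholly below Control in AngII mice, at 1949 to 4235 against 4577 to 21712 for C1qb and at 1919 to 3427 against 3447 to 14268 for C1qc. C3ar1, the C3a receptor, had a log2 fold change of 0.52 ± 0.34 in AngII, with an adjusted p of 0.363 by edgeR. In AngII+LY mice, C1qb at 4800.2 to 7222 and C1qc at 3843 to 5192 lay wholly above the AngII mice, with edgeR adjusted p-values of 0.210 and 0.250. The mice ranked alike in Control for the 3 subunits, from Control 1 down to Control 4.

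Among the 10 ligands of the monocyte receptors, 2 were lower and 1 was higher in AngII than in Control at an unadjusted p under 0.05. Ccl8, a ligand of monocyte chemokine receptors, was at 1540.0, 2354, 959 and 504 in Control and at 191, 409, 286 and 334 in AngII mice, with no overlap, a log2 fold change of -2.13 ± 0.46 and an adjusted p of 0.0573 by edgeR and 0.000525 by DESeq2. Of the growth factors and their other receptors, with 7 of 9 tested, 2 were lower. Csf1, the ligand of Csf1r, was at 8605, 9682, 8599 and 10089 in Control and at 7457, 6753, 2386 and 2709.9 in AngII mice. AngII 3 and 4, the mice with the highest mitochondrial shares, were the lowest in Csf1, and the log2 fold change was -0.94 ± 0.33, with an adjusted p of 0.106 by edgeR. Of the 10 macrophage transcription factors 6 were lower and 1 higher, and Irf8, which works with PU.1, had 2326, 1321, 1008 and 1288 in Control and 706, 950.1, 508 and 275 in AngII mice, giving a log2 fold change of -1.28 ± 0.34 without overlap and an adjusted p of 0.0620 by edgeR.

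Of the 14 genes of ITAM and Fc receptor signaling, 3 were lower and 1 higher in AngII. The phosphatase gene Ptpn6 was lower than in Control without overlap, at 412, 535, 415 and 152 against 1636, 1056, 885 and 703, and higher in AngII+LY without overlap, at 667, 945, 875 and 819. Its log2 fold changes were -1.49 ± 0.36 and 1.12 ± 0.36, with adjusted p-values of 0.0583 and 0.1 by edgeR. Cyba, the oxidase partner of Cybb, was lower in AngII without overlap, with a log2 fold change of -1.07 ± 0.30 and an adjusted p of 0.0689 by edgeR, 1 of 3 lower among 4 partners. Fcna, the lowest p of the 12 other resident macrophage genes, of which 7 were lower and 2 higher, had a log2 fold change of -1.43 ± 0.38 and an adjusted p of 0.0619. The 12 other genes of lipid-associated macrophages went both ways, 3 lower and 4 higher, with the lipid droplet coat Plin2 at a log2 fold change of -0.77 ± 0.21 (adjusted p = 0.0619 by edgeR). Of 12 lysosomal genes 4 were lower and 1 higher in AngII, with Hexa at -0.62 ± 0.20 on the log2 scale. With the GC correction, the transcription factors had 2 lower and 0 higher at an unadjusted edgeR p under 0.05. ITAM signaling had 1 and 1, the oxidase partners 1 and 0, the lysosomal genes 2 and 1 and the growth factors 1 and 1. The ligands and the C1q list each had 3 and 0, the other resident genes 6 and 0 and the lipid-associated genes 3 and 2. In that fit 1105 of the 19145 genes tested were lower and 1459 higher.

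In AngII+LY against AngII, 7 of the 85 genes in the 9 lists were higher and 6 lower at an unadjusted p under 0.05, where 10.1% of all genes tested were higher and 12.4% lower. Lipa, lysosomal acid lipase, was at 2916, 4793, 3362 and 2697 in AngII+LY and at 5903, 6208, 6227 and 5397 in AngII mice, without overlap, with a log2 fold change of -0.79 ± 0.19 and an adjusted p of 0.0588 by edgeR and 0.00291 by DESeq2. Lamp2, of the lysosomal membrane, was likewise lower without overlap, with a log2 fold change of -1.16 ± 0.31 and an adjusted p of 0.0725 by edgeR and 0.00615 by DESeq2. In the lysosomal list 2 genes were lower and 1 was higher, Ctsd, cathepsin D, named after its values were seen, with a log2 fold change of 0.58 ± 0.19 without overlap. Plin2 was higher in AngII+LY than in AngII without overlap, with a log2 fold change of 0.56 ± 0.21. The cytokine receptor chain Csf2rb and the coagulation factor F13a1 were lower at an unadjusted p under 0.05 with overlap, and the oxidase subunit Ncf1 was higher with overlap, at 590.4, 921, 937 and 722 against 286, 407, 377 and 672. Maf and Ccl4, the first of their lists in this comparison, had edgeR adjusted p-values of 0.231 and 0.341.

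**Figure D5:**
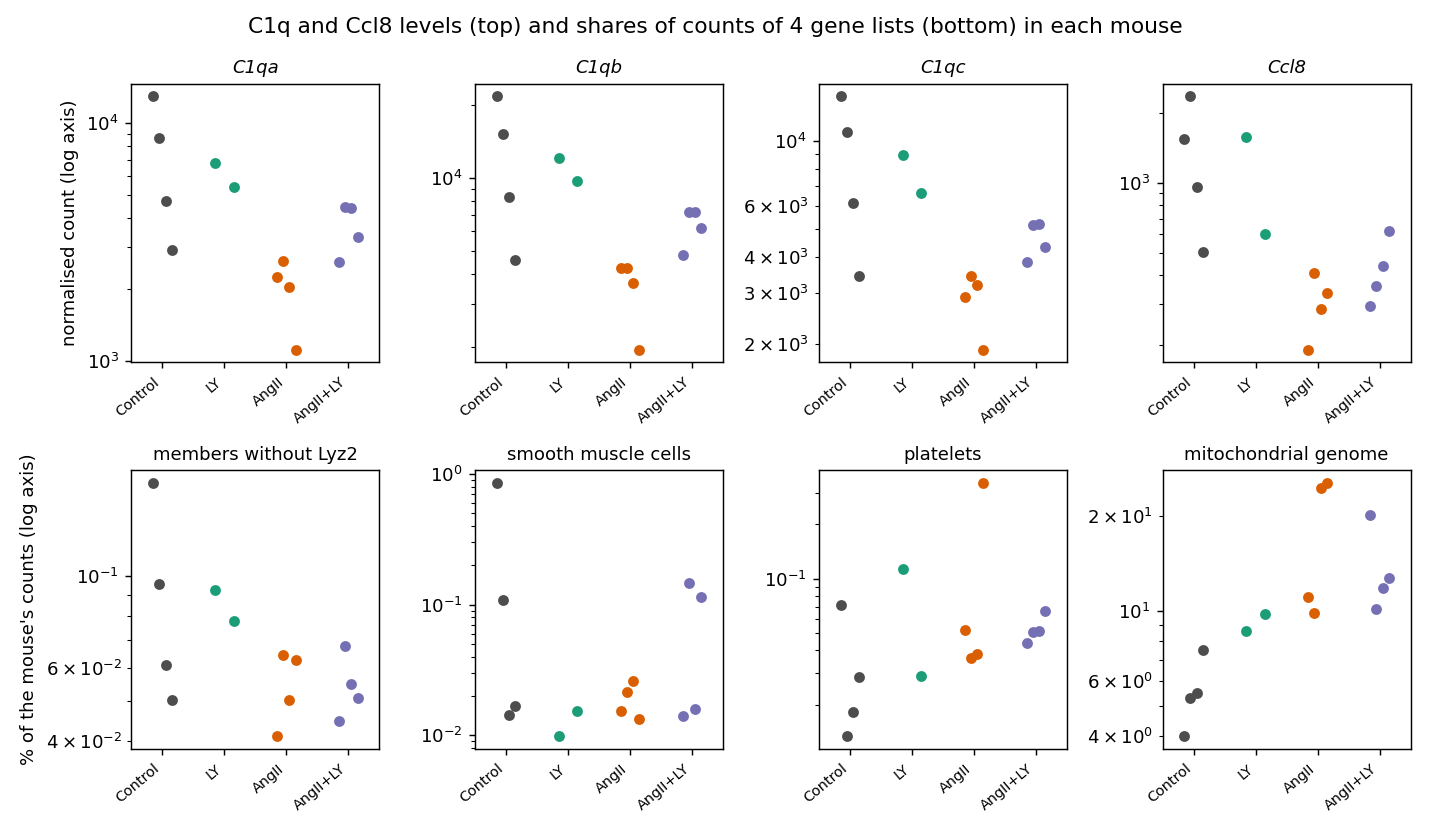
Top, normalized counts of C1qa, C1qb, C1qc and Ccl8 in each mouse. Bottom, the share of each mouse's counts in the members without Lyz2, in 5 smooth muscle genes, in 9 platelet genes and in the mitochondrial genome, all on log axes. In the top row all AngII mice lie below all Control mice, and in the bottom row Control 1 is highest in smooth muscle genes and AngII 4 in platelet genes.

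Other cell types of the valve were read by the summed share of their marker genes. Classical monocyte genes, 7 in all, took 0.00913 to 0.0208% of the Control counts, 0.0178 to 0.0223% of the AngII counts and 0.00556 to 0.0143% of the AngII+LY counts, with 1 of 7 higher and 1 lower in AngII than in Control at an unadjusted p under 0.05. The classical monocyte shares of AngII+LY mice lay wholly below those of AngII mice. Gene by gene, 5 of the 7 had log2 fold changes below 0 and 2 above. At an unadjusted edgeR p under 0.05, 1 was lower and 0 higher, where 12.4% of all genes tested were lower. Their median log2 fold change was -0.24, and it was 0.21 with the GC correction and 0.24 without AngII 4. Dendritic cell genes ranged from 0.00524 to 0.00855% in Control and from 0.00304 to 0.00701% in AngII, lymphocyte genes from 0.00133 to 0.00267% and from 0.000801 to 0.00111%, and mast cell genes from 0.00139 to 0.00387% and from 0.00115 to 0.00206%. The lymphocyte shares did not overlap between Control and AngII, while the summed normalized counts of the same genes did. Of the structural cells, valve interstitial and fibroblast genes held 0.720 to 1.52% in Control and 0.907 to 1.37% in AngII mice, and endothelial genes 0.140 to 0.279% and 0.134 to 0.247%. Adipocyte genes were at 0.0862 to 0.121% in Control and 0.0404 to 0.0715% in AngII mice without overlap. Their summed normalized counts did overlap, with 44740 in Control 4 and 47520 in AngII 3. Cardiomyocyte genes were at 0.702 to 2.99% in Control and 0.678 to 1.30% in AngII mice. Lymphatic endothelial genes, which share Lyve1 with the members, held 0.0118 to 0.0232% in Control and 0.0101 to 0.0398% in AngII mice, and red blood cell genes 0.963 to 3.03% and 1.08 to 2.50%. Smooth muscle genes held 0.0142 to 0.851% of the Control counts, 0.0133 to 0.0263% of the AngII counts and 0.0142 to 0.147% of the AngII+LY counts. All 5 were lower in AngII than in Control at an unadjusted p under 0.05, with a median log2 fold change of -3.31, and without Control 1 this median was -1.24 and 1 of 5 was lower. The part of these cell types in the member levels was not tested.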

How the data were processed

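The deposited table holds whole-number read counts per gene for 14 libraries. According to the labels and methods, the authors checked reads with FastQC 0.12.1, trimmed them, aligned them to GRCm39 with HISAT2 and counted them with featureCounts, and the values are counts although their description names them normalized. Counts from 1 to 20 were even more often (47957) than odd (30917), for a reason not given in the sources used here. All 14 columns matched a library title, and 618 genes without an entry in GENCODE vM39 held 0.0361% of the counts. Totals ranged from 20990655 to 73128220, no 2 libraries were identical, and the precision rests on the 2 to 4 libraries per group.

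The 19145 of 56941 genes whose counts averaged 10 or more per library were fitted over all 14 libraries with edgeR 4.0.16 in R 4.3.3 (TMM scaling, quasi-likelihood test, groups as the only term), with Benjamini-Hochberg adjustment over all genes tested. To normalize, each library's counts were divided by its TMM-scaled size relative to the average library. Calls needed an adjusted p under 0.05 together with a log2 fold change beyond 0.5 in either direction. DESeq2 1.42.0 (also named by the authors as their test), other scalings, no filter, only the groups compared, a GC correction, the replicate number as a block and leaving out each library were also tried. Limma 3.58.1 voom and the bias-corrected quasi-likelihood test were added after the data were seen. Ratios to Csf1r (pseudocount 1) were compared by exact permutation with scipy 1.17.1 in Python 3.11.15. The fit was tested on simulated counts. P-values measure the spread between libraries, each taken as 1 mouse from the design description.

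The members and gene lists were chosen with earlier results of these data known. Members were described singly where their groups did not overlap or the unadjusted edgeR p was under 0.05 in AngII against Control or AngII+LY against AngII, where they were the most abundant per length of their role, or where they were Csf1r, Ccr2, Lyve1, Trem2, S100a8 or S100a9. In each list of partner genes, the gene with the smallest p in each of these comparisons was named. Adgre1, C1qb, C1qc, C3ar1 and Ctsd, and other members given with every value, were added after their values were seen. Some promoter sequences are not reported here.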

Additional observations from a re-analysis of the deposited data

Results flagged for a closer look

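Within groups of 4 mice, the highest or lowest mouse was compared with the others by Dixon's ratio. Of 75 groups tested, 10 passed. The limit passes about 1 in 20 groups of normally spread values, while member levels here were on a linear scale and groups shared mice. The 10 were therefore not read as an excess. In AngII+LY mice, Csf1r was high in mouse 2, at 2863 normalized counts, and so was Trem2, at 1477. Fcgr3 was low in AngII+LY 1, at 613.75. Lyz2 in AngII+LY 4 reached 69011 normalized counts, which also set the sum of all 36 members in that mouse, 99773. In AngII mice, Ccr2 was high in mouse 4, at 1118, Pld4 in mouse 2, at 649.1, and S100a9 in mouse 1, at 225.4. The log2 ratio of Trem2 to Csf1r was low in AngII 1, at -2.02. Aif1 was high in Control 1, at 3878.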

How the results depend on the processing

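Of the summary values recomputed under 23 alternatives, 309 stayed within their limits, 8 moved and 1 reversed. Of the values of single members, 882 stayed, 35 fell back across the unadjusted threshold and 3 moved. A value counted as staying could still change sign. In AngII against Control, the log2 fold change of Ccr2 was 0.733 and reached -0.136, and that of Trem2 was -0.205 and reached 0.234. In AngII+LY against AngII, that of Lyz2 was 0.48 and reached -0.325. Where edgeR called 0 members, DESeq2 called 9 in AngII against Control, 1 in AngII+LY against AngII and 1 in AngII+LY against Control, and the bias-corrected quasi-likelihood test, chosen after seeing the data, called 1 in AngII against Control. Leaving out a mouse gave 0 to 7 called members in AngII against Control, with 7 without Control 4 and 1 without AngII 1. The members' median log2 fold change then ranged from -0.733 (without Control 4) to -0.0565 (without Control 1) in AngII against Control and from -0.76 to -0.077, again without Control 4 and Control 1, in AngII+LY against Control, and from -0.143 to 0.284 in AngII+LY against AngII. The difference in the log2 ratio of Ccr2 to Csf1r between AngII+LY and AngII ranged from -0.964 to 0.0384, and it reversed to 0.0384 without AngII 4. The cause was not tested. With the replicate number as a block, 0 members were called in every comparison, and 10, 2, 5, 0 and 1 passed an unadjusted p of 0.05 in AngII against Control, AngII+LY against AngII, AngII+LY against Control, LY against Control and the interaction, with medians of -0.499, -0.00939, -0.458, -0.22 and 0.33. Same-numbered mice did not deviate together (r from -0.128 to 0.08974 over 18 pairs), so the numbers were not taken as pairs. LY comparisons rest on 2 mice, and AngII 4 had the fewest counts, 20990655.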
